A study of Rattus norvegicus with 9 samples.

Results

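Rat embryos carrying a mutant human SOD1 transgene were compared with a negative control at the RNA level in the ventral spinal cord at embryonic day 14. The comparison used 5 of the 9 arrays of the study. They were the 4 arrays described as mutant SOD1, whose titles give the mutation G93R, and the single array titled SDneg. Each mutant array held RNA of 1 pool of 5 embryos positive for the transgene. The control array also held 1 pool of 5 embryos; the title and the start of the description call it negative, while that description then speaks of positive embryos. It was used as the negative control. The other 4 arrays, pools of 5 embryos with wild-type human SOD1, are given beside the results where they bear on them. Titles of the mutant arrays carry the name Roth and those of the wild-type arrays the name Chan, so mutation, line and whatever these names stand for cannot be told apart. Mutant replicates 2, 3 and 4 also carry a tag, le2, that the labels do not explain, and so do wild-type replicates 2, 3 and 4. Mutant replicate 1, wild-type replicate 1 and the control lack it. Nothing in the labels gives the promoter of the transgene, the number of founders or the sex of the embryos.

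SOD1 is the cytosolic copper-zinc superoxide dismutase, which converts superoxide to hydrogen peroxide and oxygen. Mutations in it cause an inherited form of amyotrophic lateral sclerosis, in which motor neurons of the spinal cord and brain degenerate in adult life, and mutant SOD1 protein misfolds and aggregates. In the embryonic ventral cord, young motor neurons extend axons and meet their period of programmed death while progenitors beside the central canal still divide. The unfolded protein response is the programme that adjusts folding capacity when misfolded protein gathers in the endoplasmic reticulum, and the proteasome degrades proteins tagged with ubiquitin.

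The arrays read 31099 probe sets, of which 57 were Affymetrix controls. Tests covered the 18625 of the others that passed a filter on low values, near a mean intensity of 17.3. Array medians were 31.6 to 33.9 in the mutant pools and 33.1 in the control. The ratio of 3' to 5' beta-actin signal, a measure of RNA quality, was 6.98 to 7.98 in the mutant pools, all above the 6.66 of the control and all below the 8.19 to 19.2 of the wild-type pools. The GAPDH ratio was 2.49 to 2.59 in the mutant pools, all below the 2.68 of the control. With 4 arrays against 1, an exact permutation test allows 5 arrangements and cannot give a p under 0.2. The part of RNA quality in the differences given here was not tested. The limma p-values rest on the spread among the mutant pools and among the wild-type pools, which are labelled as biological replicates. The single control pool gives no spread of its own.

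Motor neuron markers were read in every array. All 5 of the 7 listed markers that the array carried (Isl1, Isl2, Chat, Slc18a3, Slc5a7) lay above the filter. Their summed intensity was 1181 to 1841 in the mutant pools and 1340 in the control, so the groups overlapped. Sensory ganglion markers were also read, with 4 of 5 on the array above the filter and a sum of 3126 to 4727 against 3229. Sncg carried most of that sum, at 2843 to 4433 against 2968, so the sum says little of the other markers. Muscle markers were weak, with 2 of 6 above the filter (Myh3, Myod1, Tnni1 and Tnnt3 were not), and their sum of 149 to 176 in the mutant pools lay above the 117 of the control in all 4. Acta1, the skeletal muscle actin, carried this sum, at 119.7, 85.4, 90.2 and 92.5 against 67.4, while the muscle transcription factor Myog overlapped the control and Des, the muscle filament desmin of the wider muscle list, was lower at 15.7 to 21.2 against 25. None of the 3 endothelial, 4 microglial or 3 erythroid markers of this check lay above the filter. A wider endothelial list had 3 genes above it: Vwf (42.4 to 60.1 against 42.1) and Tek (21.3 to 23.5 against 20.4) lay above the control in all 4 pools and Esam overlapped it. The part of such cells in the results was not tested. Bulk RNA cannot tell fewer cells of a type from less RNA per cell.

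No probe set passed an adjusted p of 0.05 between the mutant pools and the control. The test was limma with Benjamini-Hochberg adjustment over all probe sets tested. It fits all 9 arrays, takes the spread from the transgenic pools and assumes that the single control varies like them. The smallest adjusted p was 0.222. At an unadjusted p under 0.05, limma gave 427 probe sets (2.29%), with 1.34% higher and 0.956% (178) lower in the mutant pools. All 4 mutant pools lay on one side of the control at 7075 probe sets (38%), 3435 above it (18.4%) and 3640 below it (19.5%). Were the control like the other arrays, 1 of the 5 arrangements would put it lowest and 1 would put it highest. Shares of this size therefore do not mark a difference between the groups. The mean was higher at 47.8% of all probe sets. A stricter description required all 4 pools on one side, a mean difference of at least 1.5-fold and a gap to the control wider than the range of the 4 pools. It left 119 probe sets (0.639%), 77 higher (0.413%) and 42 lower (0.226%), called separated here. Without mutant replicate 2, 3 or 4 the count was 187, 200 or 241, since fewer pools had to clear the control. The median size of the difference over all probe sets was 0.12 on the log2 scale, below the median SD among the mutant pools of 0.15. Members just inside and just outside the fold limit were Id1, at 0.59, and an unnamed probe set, at -0.58.

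**Figure D1:**
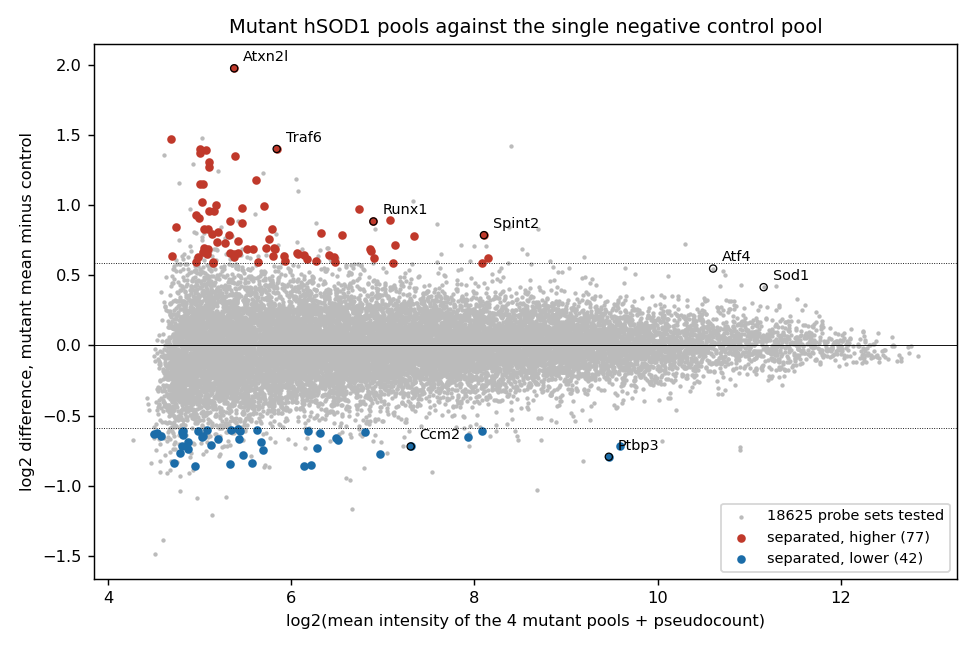
Each point is 1 of the 18625 probe sets tested, with the log2 of the mean mutant intensity plus the pseudocount on the horizontal axis and the log2 difference of the 4 mutant pools from the control pool on the vertical axis; separated probe sets are coloured. The 77 separated higher probe sets include many of low intensity. Ptbp3 is marked among the lower ones at a difference of -0.79, and others lie lower, such as Zeb2 and Dnajc11 at -0.86.

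Among the separated probe sets, 13 were higher by 2-fold or more and 0 were lower by that much. In 13 of the 77 higher ones the control value lay under the pseudocount of 8.25 that was added before taking logs. Where both the control and the mutant mean were at least 50, 12 were higher and 14 lower. A gene symbol was listed for 78 of the 119. The mean of the wild-type pools lay on the same side of the control at 118 of the 119, but that comparison uses the same single control pool. The wild-type pools were themselves separated the same way at 25 of them; over all probe sets they were separated at 139 (0.746%), 86 higher (0.462%) and 53 lower (0.285%).

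The best measured genes above the control included Zfp346, Atf4 and Spint2. Zfp346, a zinc finger protein that binds double-stranded RNA, read 108, 131, 119 and 151 in mutant pools 1 to 4 and 64.0 in the control. All 4 values were well above the control, at a mean ratio of 1.99 and a log2 difference of 0.90 (SE 0.207), with an adjusted limma p of 1. A second Zfp346 probe set did not share this, with 115, 118, 101 and 106 against 119.6. Spint2, an inhibitor of serine proteases at the cell surface, read 311, 272, 232 and 252 against 150.4, a log2 difference of 0.79 (SE 0.217). Prickle1, a planar cell polarity protein, read 111, 94.5, 101 and 127 against 64.4, a log2 difference of 0.67. For both genes the lowest mutant pool was clear of the control, and neither passed the adjusted threshold.

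The receptor phosphatase Ptprf, which acts in axon growth, read 576, 474, 625 and 646 against 369.6 on one probe set. On a second probe set the mutant values of 749 to 831 enclosed the control at 822, so the probe sets of this gene disagreed. Rbbp6, a ubiquitin ligase that binds the retinoblastoma protein, read 261, 286, 243 and 258 against 171, and its other 2 tested probe sets differed by -0.02 and 0.17. Acsl5, which activates long-chain fatty acids, lay above the control on both probe sets, at 94.0 to 127 against 63.2 and at 259.8 to 283 against 219.7. The actin-capping subunit Capzb (422 to 527 against 326), the recombination protein Swi5 (155 to 223 against 117) and LOC100911177 (454 to 577 against 347) were the others of this group. A second Capzb probe set pointed the other way, at 33.4 to 41.9 against 43.2. Cdc42, the small GTPase that organises actin at the growth cone, read 2940.4, 2953, 3061 and 2772 against 2328 on one probe set, with no overlap. Its other 2 probe sets gave log2 differences of 0.01 and 0.0011.

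Below the control, Ptbp3 stood apart from the wild-type pools as well. This gene codes for a polypyrimidine tract-binding protein, a regulator of splicing. The mutant pools read 751, 781, 647 and 621, the control 1213 and the wild-type pools 1159 to 1463. All 4 mutant pools were thus below every other array. The log2 difference from the control was -0.79 (SE 0.155) with an adjusted limma p of 1. Between mutant and wild-type pools, a comparison that does not use the control, Ptbp3 was lower by a log2 difference of -0.94 (SE 0.0982), and this passed the threshold with an adjusted limma p of 0.00523. It was the single separated probe set at which the wild-type mean lay on the other side of the control. A second Ptbp3 probe set lay under the filter, at 2.54 to 8.46 against 4.75, and gives no check.

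Ccm2, a scaffold protein named for cerebral cavernous malformations, read 146, 170.5, 142 and 139 against 251 in the control, a log2 difference of -0.72 (SE 0.173). The wild-type pools read 142 to 174, in the range of the mutant pools. Pde7a, a cAMP phosphodiesterase, read 473 to 572 against 735, and the Integrator subunit Ints7 read 189 to 239 against 298. The second Ints7 probe set was also below, at 26.4 to 32.2 against 34.7. Ptprd, a receptor phosphatase of developing synapses, read 73.6 to 93.6 against 137 on its separated probe set. Its other probe sets were lower in 1 case (801 to 887 against 1048) and overlapping in the other (1860.0 to 2329 against 2259.5). The AP-1 factor Jund, the heterochromatin protein Cbx1, the RNA-binding protein Rbm14, the demethylase Alkbh1 and the kynurenine aminotransferase Kyat3 were below the control by log2 differences of -0.28, -0.52, -0.39, -0.44 and -0.51. A second tested Jund probe set overlapped the control (10.4 to 33.1 against 23.6), as did the other 2 of Cbx1 (24.3 to 32.5 against 25.7, and 67.2 to 119 against 117). For Mdm4, an inhibitor of p53, one probe set lay below (348 to 387 against 486) and another above (27.1 to 33.9 against 22.7). Dnajc11, a mitochondrial J-domain protein, read 47.9 to 75.0 against 118, but a second probe set gave 37.8 to 65.0 against 41.2.

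**Figure D2:**
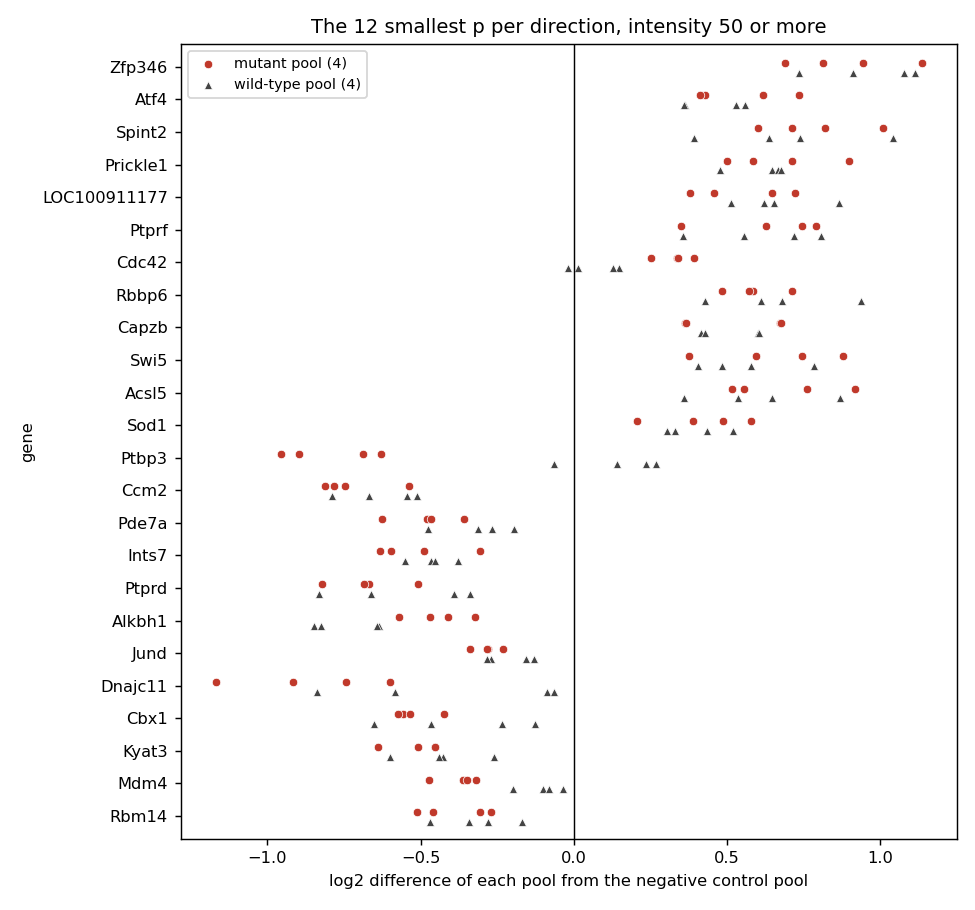
Values of the genes with the smallest limma p in each direction among those with intensities of at least 50, drawn as the log2 difference of each mutant pool (circles) and each wild-type pool (triangles) from the control pool, with the control at 0. Every mutant pool of Zfp346 and Spint2 lay above the control and every pool of Ptbp3 and Ccm2 below it, while the spread among the 4 pools differed from gene to gene.

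The largest differences came from probe sets that were dim in the control. Atxn2l, a relative of ataxin-2 found in stress granules, read 24.9, 39.6, 34.5 and 34.0 against 2.21. The control was the only low array, since the wild-type pools read 27.0 to 50.1. Its log2 difference was 1.98 (SE 0.29), and its adjusted limma p of 0.222 was the smallest of the comparison. A pseudocount of 33.0 lowered the difference to 0.91 and one of 2.06 raised it to 3.03, with an adjusted limma p of 0.0176. The zinc finger repressor Zbtb7a (20.5 to 31.2 against 5.48), the mitochondrial threonyl-tRNA synthetase Tars2 (17.1 to 29.5 against 4.06), the signalling ligase Traf6 (38.5 to 63.6 against 13.1) and the F-box protein Fbxo10 (21.7 to 29.2 against 5.89) had the same form. Other probe sets did not all share it: a brighter Tars2 probe set read 416 to 494 against 439.9, and Traf6 had 3 others with log2 differences of -0.15 to 0.25.

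Low readings in the mutant pools were seen for Zeb2, a transcription factor of neural crest and neurons, at 20.9, 23.8, 25 and 20.4 against 47.5. Its wild-type pools read 20.3 to 28.8, so here too the control was the one array that differed. The other 3 tested Zeb2 probe sets had log2 differences of -0.28, 0.03 and 0.23. Mybpc1, a myosin-binding protein of slow muscle, read 8.01, 10.4, 30.7 and 8.78 against 51.2, and mutant pool 3 was the high one. Nrg2, a neuregulin, read 9.98 to 22.9 against 37.9. The calcium-response factor Carf (32.2 to 61.1 against 88.6), the Cdc42 exchange factor Dnmbp (37.2 to 55.9 against 77.0) and Abhd13 (38.1 to 61.9 against 81.6) completed this group. The other 2 Abhd13 probe sets overlapped the control, at log2 differences of 0.06 and -0.23. None passed the adjusted threshold.

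Genes read by several probe sets are described next. Those named were chosen because every tested probe set lay on the same side, so that agreement gives no support. Of 2562 genes with at least 2 tested probe sets, 99 (3.86%) had every one above the control in all 4 mutant pools and 83 (3.24%) every one below. Single probe sets lay above in 18.4% and below in 19.5%. Whether probe sets of a gene agree more often than these shares alone would give was not tested. Runx1, a transcription factor of sensory neurons and blood, was the first of the higher ones. It read 132, 103, 111 and 97.4 against 56.0 on one probe set and 23.4, 24.9, 29.6 and 21.5 against 15.6 on the other. On both, no mutant pool overlapped the control, as the choice required. The wild-type pools read 43.7 to 103 and 11.8 to 21.1, and the mutant minus wild-type log2 differences were 0.64 and 0.56, with unadjusted limma p of 0.00572 and 0.00768 and an adjusted p of 0.929 for each. Runx1 is on the sensory ganglion marker list, whose summed level, mostly Sncg, overlapped between mutant pools and control.

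Grin2b, which codes for a subunit of the NMDA receptor, headed the lower genes. It read 26.8, 20.1, 23.9 and 25.9 against 42.6 on one probe set and 13.0, 15.5, 14.3 and 14.4 against 26.6 on the other, log2 differences of -0.65 and -0.63. Both were separated. The collagen gene Col5a2 (53.2 to 70.1 against 36.5, and 26.5 to 46.2 against 24.7), the adhesion molecule Sdk1, the mitosis regulator Cdc20, the oligosaccharyltransferase subunit Ost4 and the secretory cargo receptor Tmed9 (1026 to 1319 against 939.7, and 39.3 to 60.5 against 29.7) were higher on every tested probe set. LOC100912031, Lrch2, the telomere protein Pot1, the cAMP phosphodiesterase Pde4b (25.9 to 41.2 against 48.9, and 64.6 to 81.7 against 89.6) and the mitochondrial RNase P subunit Prorp (126 to 134 against 163, and 78.5 to 97.2 against 109) were lower on every one.

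Genes of the unfolded protein response lay above the control more often than below it. Of 32 listed, 29 were measured above the filter; the mean was higher for 21, and all 4 pools lay above the control for 10 (34.5%) and below it for 3 (10.3%). Over all 9868 genes with 1 probe set each, the same shares were 19.9% and 17.5%, and the mean was higher for 5030 (51%). The list's median log2 difference was 0.06, against 0.0039 over all genes, and no member passed the adjusted limma threshold. Such a list is described by its counts, and no test was made of it. Above the control were Atf4, Trib3, Herpud1, Hspa5, Ddit3, Sel1l, Ppp1r15a, Dnajb9, Pdia3 and P4hb, and below it Sdf2l1, Atf6 and Xbp1.

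The promoters of 3 of these genes are shown because the response is known to act through short elements at such sites and these members lay on both sides of the control. Each is the 250 bases before the start in RefSeq for the rat build GRCr8, written along the gene's strand, with the element in capitals. The element ERSE was searched as CCAAT and CCACG with 9 free bases between them and ERSE-II as ATTGG and CCACG with 1 free base between them, on both strands.
Hspa5, chr3:38452766-38453015, + strand: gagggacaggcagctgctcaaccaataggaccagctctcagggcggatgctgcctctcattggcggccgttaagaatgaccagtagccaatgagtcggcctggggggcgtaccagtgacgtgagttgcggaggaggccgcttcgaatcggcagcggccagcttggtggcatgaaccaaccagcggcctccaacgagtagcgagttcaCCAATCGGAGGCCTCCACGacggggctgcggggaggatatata
Herpud1, chr19:10614708-10614957, - strand: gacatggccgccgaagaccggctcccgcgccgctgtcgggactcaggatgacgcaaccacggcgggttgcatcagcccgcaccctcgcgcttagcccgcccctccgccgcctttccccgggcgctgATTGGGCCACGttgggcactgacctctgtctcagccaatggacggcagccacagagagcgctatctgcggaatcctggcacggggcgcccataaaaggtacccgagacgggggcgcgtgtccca
Xbp1, chr14:84604373-84604622, + strand: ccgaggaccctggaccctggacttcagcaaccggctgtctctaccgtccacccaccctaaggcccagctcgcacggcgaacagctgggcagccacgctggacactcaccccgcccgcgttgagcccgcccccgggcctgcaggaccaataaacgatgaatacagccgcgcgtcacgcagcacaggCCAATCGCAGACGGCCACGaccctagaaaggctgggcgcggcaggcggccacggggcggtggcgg

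The Hspa5 promoter holds an ERSE match 43 to 25 bases before the start, Xbp1 one 65 to 47 bases before it, and Herpud1 an ERSE-II match 124 to 114 bases before it. Of 33469 rat promoters of this length, 22 (0.0657%) hold ERSE and 14 (0.0418%) hold ERSE-II. Of the 24 listed genes with a promoter in the table, 7 hold ERSE (Calr, Canx, Creld2, Dnajc3, Hsp90b1, Hspa5 and Xbp1) and 2 hold ERSE-II (Herpud1 and Hyou1). Of these genes, Hspa5 and Herpud1 lay above the control in all 4 pools on the probe set used for the list, and the others did not. The element through which Atf4 acts, searched as TGATG and AAT with 1 free base between them, was in 316 promoters (0.944%) and in none of the 24. A match is a description of the letters and says nothing of binding.

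Atf4, the transcription factor at the centre of the integrated stress response, read 1621, 1758, 1422 and 1405 in the mutant pools against 1054 in the control. The lowest mutant pool was well clear of the control. The log2 difference was 0.55 (SE 0.138) with an unadjusted limma p of 0.0016. Its target Trib3, a pseudokinase that restrains Atf4, read 21.2, 23.3, 25.9 and 23.6 against 8.63 and was separated, but its other 2 probe sets lay under the filter and overlapped the control. Herpud1, which acts in the removal of misfolded proteins from the endoplasmic reticulum, read 369, 469, 468 and 314 against 221, a log2 difference of 0.83 (SE 0.292). Hspa5, the main chaperone of that compartment, read 3176, 3329.9, 2891 and 3073 against 2549, a log2 difference of 0.29 (SE 0.112). The growth arrest factor Ddit3 read 46.6 to 65.9 against 35.3, and Ppp1r15a, which reverses the block on translation, read 66.4 to 133 against 58.4.

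Xbp1, the transcription factor of another branch, was on the other side, at 865, 806, 947 and 964 against 991. Atf6, the sensor of a further branch, read 184 to 225 against 233. The chaperones Hsp90b1 (1092 to 1149.8 against 1110.0) and Calr (455 to 633 against 459.7), whose promoters hold the same element as Hspa5, overlapped the control. The wild-type pools read 1354 to 1558 for Atf4, 367 to 687 for Herpud1 and 2721 to 3211 for Hspa5, also above the shared control. Between mutant and wild-type pools the log2 differences of these genes were 0.10, -0.30 and 0.10, with adjusted limma p of 0.936, 0.929 and 0.929. Over the whole list the wild-type median was 0.0061 against the same control, beside 0.06 in the mutant pools.

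**Figure D3:**
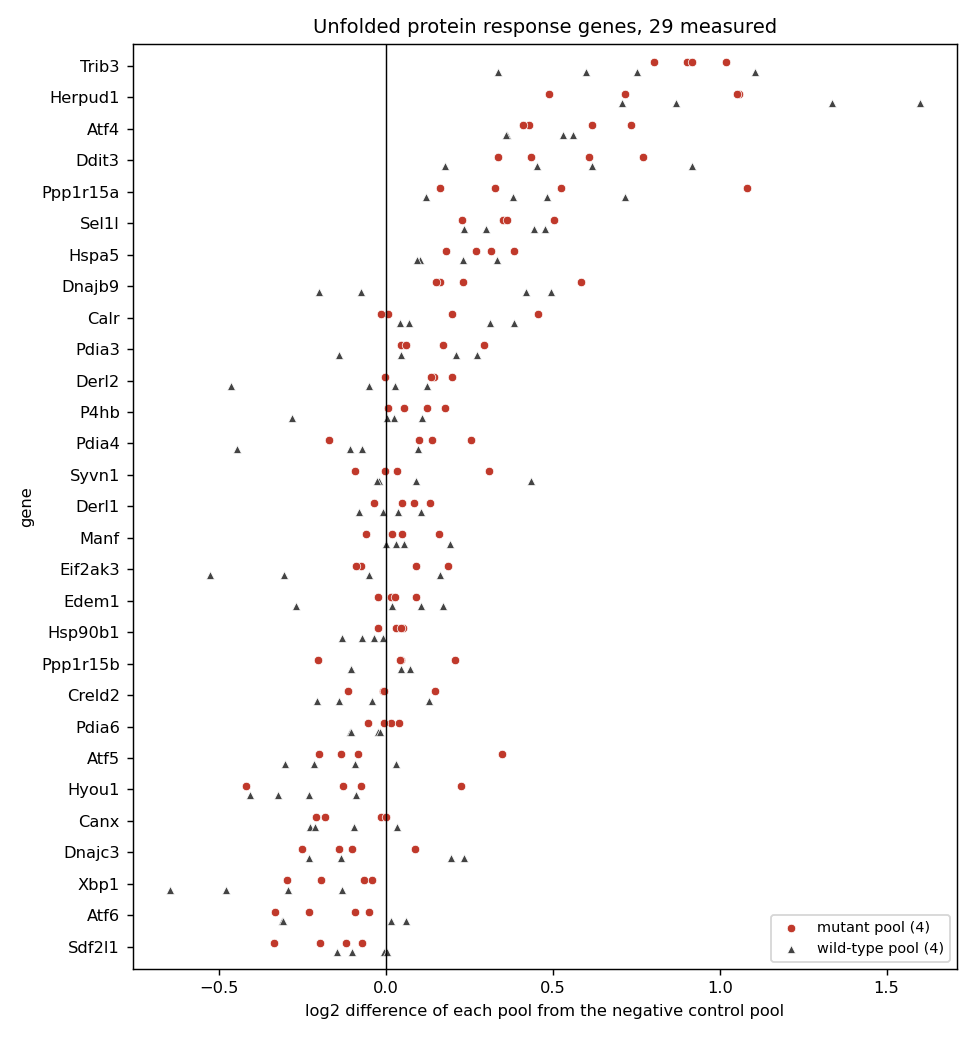
Log2 difference of each mutant pool (circles) and each wild-type pool (triangles) from the control pool for the measured genes of the unfolded protein response. Trib3, Herpud1 and Atf4 lie farthest above the control, and Xbp1, Atf6 and Sdf2l1 have all 4 mutant pools below it.

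A wider list held genes that Atf4 is known to induce under amino acid shortage. Of 17 measured, the mean was higher for 12 and lower for 5. In all 4 pools 2 (11.8%) lay above the control and 2 (11.8%) below, beside 19.9% and 17.5% of all genes. Asns, the asparagine synthetase, read 146 to 175 against 137, and the tryptophanyl-tRNA synthetase Wars1 read 641, 937, 799 and 723 against 1020.3. A second Wars1 probe set overlapped the control, at 126 to 155 against 136. The proteasome list had all 4 pools above the control for 10 of 31 measured genes (32.3%) and below it for 3 (9.68%). This stands beside the same shares of all genes, and the list's median was 0.08. Psmd4, a ubiquitin receptor of the proteasome, read 635, 612, 541 and 561 against 447, and Psma7 read 1883, 1921, 1727 and 1758 against 1489. Psmd3 read 325 to 389.7 against 261. No proteasome gene was separated or passed the adjusted threshold. By pool, the proteasome median was 0.13, 0.11, 0.07 and -0.03, so pool 4 was at the level of the control. The wild-type median of this list was 0.07 against the same control.

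Cytosolic ribosomal protein genes had 9 of 22 (40.9%) above the control in all 4 pools and 0 below, with a median of 0.10. Over all genes the shares above and below were 19.9% and 17.5%. The order of the pools in the ribosomal median was the same as for the proteasome, at 0.20, 0.13, 0.10 and -0.04. Rpl24, of the large ribosomal subunit, read 1570.2, 1610.2, 1388 and 1268 against 1156, and Rps9, of the small one, read 2555, 2491, 2222 and 2093 against 1929.9. Both had their lowest reading in pool 4, still above the control. The wild-type median was 0.09 against the same control. Subunits of oxidative phosphorylation had 5 of 35 (14.3%) above and 2 (5.71%) below, beside the same shares of all genes. Their pool medians were 0.16, 0.12, 0.05 and -0.10, and their wild-type median was 0.08 against the same control. Cox5a was the one separated member, at 61.5 to 78.0 against 121.

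**Figure D4:**
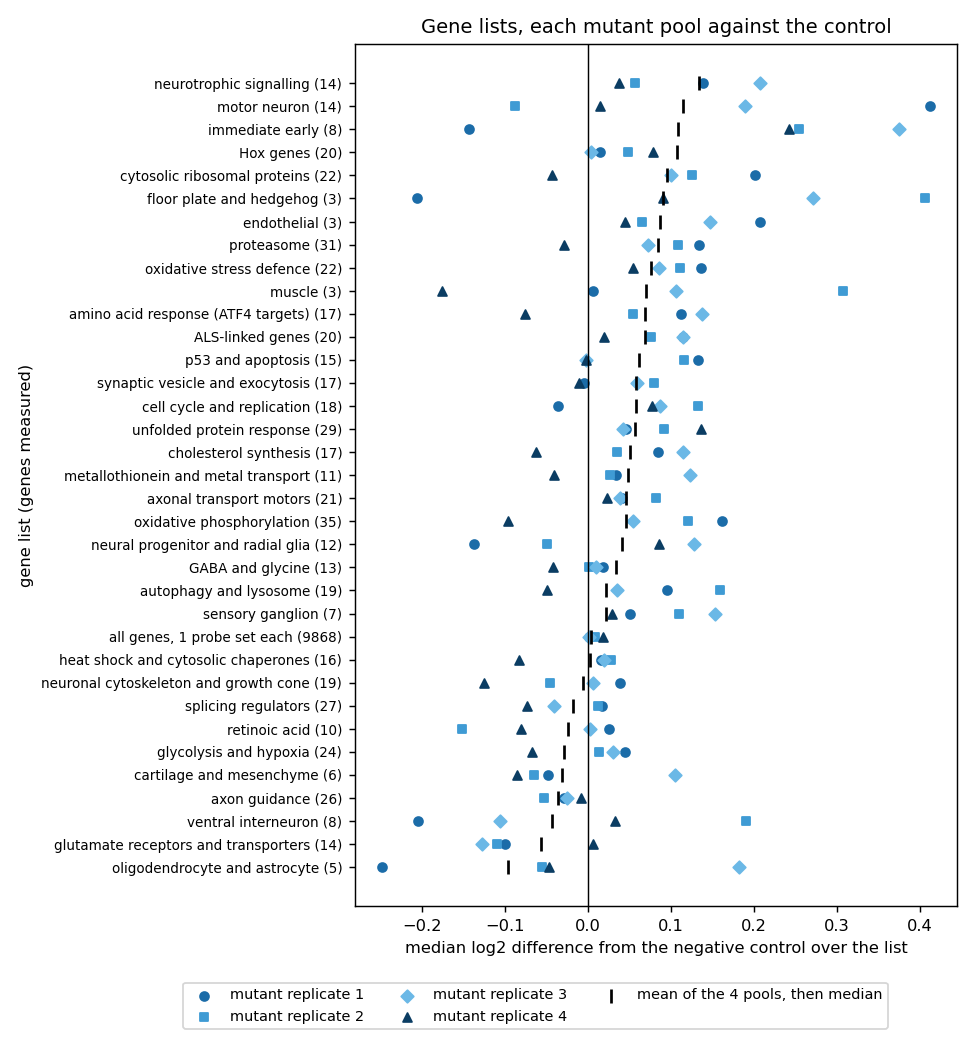
Median log2 difference from the control pool over the measured genes of each list, with a point for each of the 4 mutant pools, a dash for the list's median over their means and the line at 0 for the control. The pools spread widely for small lists such as motor neuron genes, and pool 4 lies lowest for the ribosomal, proteasome and oxidative phosphorylation lists.

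The rat Sod1 probe set read 2540.2, 2386, 2226 and 1963 in the mutant pools against 1699 in the control. All 4 were above it, with pool 4 the nearest, at a log2 difference of 0.42 (SE 0.133) and an adjusted limma p of 1. The wild-type pools read 2099 to 2442, and mutant and wild-type pools differed by 0.02 (adjusted limma p of 0.981). Whether this probe set also reads transcripts of the human transgene was not tested, so it does not check the labels. Other genes of oxidative stress defence had 9 of 22 (40.9%) above the control, Sod1 included, and 3 (13.6%) below. Over all genes these shares were 19.9% and 17.5%. The mitochondrial thioredoxin Txn2 read 370.0 to 499.8 against 342 and the secreted glutathione peroxidase Gpx3 read 207 to 299.8 against 189. Sod2, the mitochondrial superoxide dismutase, read 174 to 237 against 168, while the peroxiredoxin Prdx2 was lower, at 5429 to 5949 against 6078. Ccs, the copper chaperone of Sod1, read 176 to 238 against 179 and overlapped.

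Motor neuron genes varied among the mutant pools more than they differed from the control. Of 14 measured, 3 (21.4%) lay above in all 4 pools and 1 (7.14%) below, beside 19.9% and 17.5% of all genes. The list's median by pool was 0.41, -0.09, 0.19 and 0.01. Isl1, a transcription factor that specifies motor neurons, read 605, 354, 452 and 461 against 393. Chat, the acetylcholine synthesising enzyme, read 175, 115, 180.4 and 149 against 163, and the vesicular transporter Slc18a3 read 525, 365, 304 and 386 against 384. Pool 1 was the highest or next to the highest in each, and the control lay inside the range of the mutant pools for all 3 genes. Prph, the intermediate filament peripherin, was one of the 3 above, at 2985, 2244, 2715 and 2067 against 1847. Among other genes linked to amyotrophic lateral sclerosis, 6 of 20 (30%) lay above and 3 (15%) below, beside the same shares of all genes. Vapb, a membrane protein of the endoplasmic reticulum, read 505 to 659.6 against 446, and Tardbp, on its brightest probe set, read 1562 to 1798 against 1575.

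Glutamate receptor and transporter genes had 4 of 14 (28.6%) below the control in all 4 pools and 1 (7.14%) above, beside 17.5% and 19.9% of all genes, and a median of -0.06. Apart from Grin2b, these were the receptor subunits Gria4, Gria2 and Grin2a. Gria4 read 173, 150.1, 137 and 62.7 against 177, and pool 4 was far below the others. Neurotrophic genes had 5 of 14 (35.7%) above and 1 (7.14%) below, beside the same shares of all genes. Bdnf, the brain-derived neurotrophic factor, read 26.4, 29.6, 20.2 and 32.2 against 15.4, while a second, dimmer Bdnf probe set under the filter pointed down, at 9.91 to 16.8 against 22.4. Hox genes were split, with 6 of 20 (30%) above and 5 (25%) below, beside the same shares of all genes. Hoxc8, of the brachial and thoracic cord, read 39.5, 52.8, 41.7 and 43.8 against 24.2 and was separated, and Hoxd3 read 371 to 499 against 527. Stmn4, a stathmin of growing axons, read 953 to 1310.0 against 773.

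Separated probe sets were also compared with the wild-type pools; the control does not enter that comparison, but the same mutant values enter both. At 14 of the 119 the mutant pools differed from the wild-type pools in the same direction at an unadjusted limma p under 0.05, with 8 higher and 6 lower. Over all probe sets tested, 3.15% passed that p in the direction of their difference from the control, and 4.94% in either direction. Of these, 10 had a symbol. Beside Ptbp3 and the genes above (Runx1, Grin2b and Dnajc11) they were Oip5-as1, Setd5, Dicer1, Vps26c, Pmp22 and Sppl2a. At 9 of the 119, the mutant values did not overlap the wild-type values and lay farther from the control. Over all probe sets tested, 1.77% had no such overlap in the direction of their difference from the control. That share does not require the mutant values to lie farther from the control, so it is not the same measure. Mutant values enter both comparisons, so these shares are descriptions.

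Setd5, a chromatin regulator, read 51.1, 52.1, 51.9 and 53.7 in the mutant pools, 36.0 to 44.1 in the wild-type group and 30.7 in the control. Its mutant pools lay close together and clear of both groups, but the other 2 Setd5 probe sets overlapped the wild-type pools. The long noncoding RNA listed as Oip5-as1 read 44.4, 46.2, 49.7 and 35.2 against 24.9 to 34.5 in the wild-type group and 17.7 in the control. Its 2 other probe sets, one of them far brighter at 1764 to 1971 against 2012, were below the control. Vps26c, of an endosomal retrieval complex, read 71.2 to 94.4 against 59.6 to 68.7 and 48.7, and a brighter Vps26c probe set overlapped the control (209 to 266 against 232). Dicer1, the microRNA-processing nuclease, read 51.1 to 68.2 against 36.5 to 51.8 and 34.3. The myelin protein gene Pmp22 read 72.4 to 87.5 against 41.7 to 80.2 and 50.7, and its second probe set overlapped the control (20.1 to 39.3 against 35.2). The protease Sppl2a was lower, at 35.1 to 47.2 against 52.2 to 73.3 and 66.4, and of its other 3 probe sets 1 lay below the control and the others overlapped it. Apart from Ptbp3, none passed the adjusted threshold.

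Somatostatin and Ddx42 were the other probe sets to pass limma between mutant and wild-type pools, and at both the mutant pools were near the control. Sst, the precursor of the neuropeptide somatostatin, read 166, 231, 174 and 161 against 158 in the control and 292 to 384 in the wild-type pools, with no overlap between the transgenic groups. Its mutant minus control log2 difference was 0.18 (SE 0.209) and its mutant minus wild-type difference -0.95 (SE 0.132, adjusted limma p of 0.0391). One probe set of the RNA helicase gene Ddx42 read 21.3, 23.5, 21.0 and 24.1 against 21.5 in the control and 49.1 to 99.4 in the wild-type pools. The mutant minus wild-type difference was -1.40 (SE 0.185, adjusted limma p of 0.0369). The brighter Ddx42 probe set, at 493 to 625 against 471 to 571 in the wild-type pools, did not show it. Limma called 3 of 18625 probe sets (0.0161%) in this comparison. Ptbp3 kept its call when any 1 mutant or wild-type pool was left out. Sst lost its call without mutant replicate 1, 3 or 4 or wild-type replicate 1, 3 or 4, and Ddx42 without any 1 mutant pool or wild-type replicate 1, 2 or 3. The actin ratio of every mutant pool was below that of every wild-type pool, and its part in these differences was not tested.

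**Figure D5:**
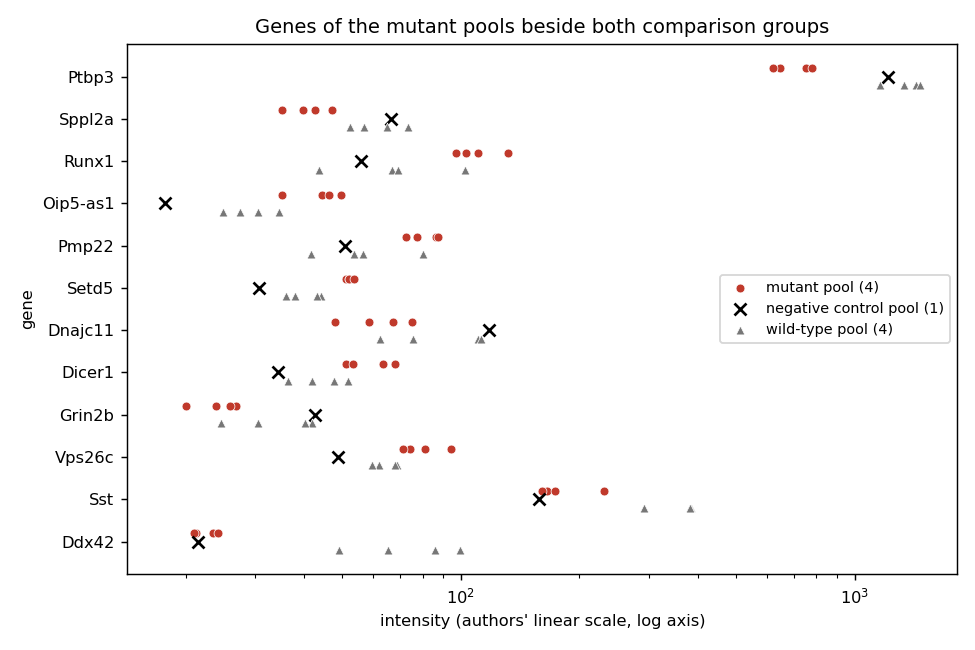
Intensities on a log axis of each mutant pool, each wild-type pool and the control pool for the separated genes that also differed from the wild-type pools at an unadjusted p under 0.05, and for Sst and Ddx42. The mutant values of Ptbp3 lie below all other arrays, while for Sst and Ddx42 they lie beside the control.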

How the data were processed

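RNA of 5 pools was compared, with 4 wild-type pools beside them. The authors deposited 1 intensity per probe set on a linear scale; every array had a trimmed mean of about 150.05 in the values, so the arrays appear to have been scaled. No label names the software. The log2 of each deposited intensity was taken with a pseudocount of 8.25 (25th percentile of all values). Probe sets at or under the 40th percentile of mean log2 value were left out. All 9 arrays were fitted with limma 3.58.1 (R 4.3.3; lmFit, then eBayes with trend), checked on simulated data, with Benjamini-Hochberg adjustment at 0.05. Arrays have no read depth; their number limits precision. Of 31042 probe sets that were no Affymetrix controls, 20826 had 1 symbol, 436 several and 9780 none.

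Named genes had all 4 mutant pools on one side of the control: the 12 smallest p per direction with intensities of at least 50, 6 per direction below that, 6 genes per direction with every probe set on one side, and up to 4 per list. Sod1 and probe sets passing limma against wild-type were added. Other list members are named to account for counts, or as markers, chosen after their values were seen. Members and lists were chosen with earlier results of these data known. List values used the brightest probe set of a gene. Alternatives were scaling, pseudocount, filter, limma settings, fold and gap limits, the le2 tag, leaving out each array, and a replicate block.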

Additional observations from a re-analysis of the deposited data

Results flagged for a closer look

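Each group of 4 mutant pools behind a named value was examined for 1 pool far from the other 3, in 201 groups; chance gives such a gap in about 1 in 20 groups, and 6 were found. Mutant replicate 3 stood apart for Mybpc1, at an intensity of 30.7, and for Cdc20, at 38.8. Mutant replicate 2 stood apart for the telomere protein gene Pot1, at 31.2. Mutant replicate 4 stood apart, on the low side, for the cochaperone Dnaja1, at 2928, for the lysosomal protease Ctsl, at 426, and for the median of the heat shock and cytosolic chaperone list, at a log2 difference of -0.083 from the control.

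The mutant pools differed from the wild-type pools, by limma, at Ptbp3 (log2 difference of -0.94), Sst (-0.95) and Ddx42 (-1.40).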

How the results depend on the processing

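No probe set passed the adjusted limma threshold against the control under any alternative except the pseudocount of 2.06, with 1 (Atxn2l). Of 2918 values of the 165 named probe sets under the alternatives, 2914 kept direction and call. None of these probe sets had a call against the control to lose, and nearly all were chosen for lying on one side of it. That count was therefore largely set by the choice. Fitted with le2 as covariate, Sim1, Hspa4 and Cyp26b1 turned to 0.015, 0.034 and 0.13, and Ddx42 was -0.010 in mutant replicate 1 against the control alone, an alternative chosen after seeing the data; the cause was not tested. Of 336 list medians, 324 moved by less than the spread between pools. Counts moved by construction with what was asked of a probe set. Without the filter, limma gave 1037 at an unadjusted p under 0.05, 12092 were on one side (5719 above) and 553 were separated (277 higher, 276 lower). With a filter at the 60th percentile these were 266, 4641 and 32 (18 and 14). Separated probe sets were 24 (14 and 10) with a pseudocount of 33.0, 118 higher with one of 2.06, 466 (268 and 198) at the lower fold limit tried, 13 (13 and 0) at 2-fold, 313 (152 and 161) with no limit on the gap, 43 with 1 probe set per gene, and 165 to 241 (99 to 129 and 66 to 120) with 1 mutant pool left out. The share of higher among separated probe sets was 64.7%, with 69.7% under quantile and 71.5% under median scaling. It was 56.2% with the stricter filter, 50.1% without the filter and 50.2% (121 and 120) without mutant replicate 4. With no limit on the gap it was 48.6%, and at 2-fold 100%, so the excess of higher probe sets depended on the setting. Between mutant and wild-type pools, the 3 limma calls became 5 with median centring, 0 without the intensity trend, 1 without the filter, with the stricter filter or with the le2 tag, and 1 to 3 with 1 pool left out. Whether replicate numbers pair the pools was not tested. Same-numbered deviations correlated at 0.12, 0.09, -0.07 and 0.20, and 2 of the 4 mutant pools correlated best with their own number. With a replicate block limma called 3 (Ddx42, Ptbp3 and Tm9sf3), as many as without it. Dim probe sets near the pseudocount limit what fold can be read.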

Other observations

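The pools differed among themselves at genes that did not separate them from the control; these genes were chosen after their values were seen. Xist, the RNA of the inactive X chromosome, read 1710.3, 1885, 1356 and 2674 in the mutant pools and 3064 in the control on its brightest probe set, and the Y-linked Eif2s3y read 260.2, 544, 556 and 199 against 294. All 4 mutant pools were below the control on that Xist probe set. Pool 4 had the highest Xist and the lowest Eif2s3y of the mutant pools. The Y-linked Uty went the other way on its probe set above the filter, at 157, 176, 168 and 189 against 181, with pool 4 the highest. On the other 3 Xist probe sets pool 4 was above the control. The sex of the embryos is not given in the labels, and its part in the results was not tested.

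Fabp7, a fatty acid-binding protein of radial glia, read 165, 241, 681 and 207 against 149, with pool 3 the high one. The progenitor markers summed to 315 to 898 in the mutant pools and 323 in the control. Among the widest spreads were Ube3al1 (711, 37.3, 96.5 and 44.2 against 62.2), the nicotinic receptor subunit Chrna5 (97.3, 174, 222 and 43.7 against 92.8) and the Wnt effector Tcf7l2 (18.9, 69.7, 23.2 and 139 against 76.0), and for all 3 the control lay inside the range of the mutant pools. Pairs of mutant pools differed by a median of 0.14 to 0.19 on the log2 scale, and mutant pools from the control by 0.14 to 0.18.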
